A study of Mus musculus with 28 samples.

Results

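Germinal center B cells of mice carrying the ImuBcl6 allele were compared with germinal center B cells without it, in the 8 of the series' 28 RNA-seq libraries whose titles name ImuBcl6 (5 libraries) or WT (3 libraries). The ImuBcl6 cells are labelled ImuBCL6_Cg1Cre(+/-)_Tbl1xr1(WT/WT) and the WT cells Cg1Cre(+/-)_Tbl1xr1(WT/WT), so both groups carry a heterozygous Cg1Cre allele and unmutated Tbl1xr1, and the ImuBcl6 allele is the labelled difference. The other groups used are as follows. ImuBcl6 D370Y (ImuBCL6_Cg1Cre(+/-)_Tbl1xr1(D370Y/WT), 5 libraries) and D370Y (Cg1Cre(+/-)_Tbl1xr1(D370Y/WT), 5 libraries) differ by the same allele in cells with 1 mutant copy of Tbl1xr1, and share no library with the first comparison. The Cre control (5 libraries) has the genotype label of WT, but its protocol text names a stranded TruSeq kit and that of ImuBcl6 and WT names none. The labels give no age, immunization or sort gate, and do not tie libraries to animals. The p-values therefore rest on the scatter among the libraries of a group, part of which may be technical.

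BCL6 is a zinc finger transcriptional repressor that germinal center B cells need. It holds back genes of cell cycle arrest, DNA damage sensing, B cell activation and plasma cell differentiation, working through corepressor complexes, and TBL1XR1 is a subunit of some of these. The ImuBcl6 allele is a knock-in that drives Bcl6 from an immunoglobulin heavy-chain promoter in B cells, so that expression is not switched off as it normally is when cells leave the germinal center, and mice that carry it are used as a lymphoma model. Cg1Cre expresses Cre recombinase in B cells that have switched on the heavy-chain constant region gamma 1 locus. Levels are in CPM, reads of a gene scaled to a fixed library total. A log2 change is the difference of group means of log2(CPM + 1), where the added 1 makes changes of weakly expressed genes look smaller than they are.

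Against WT, ImuBcl6 cells had higher levels of 15 of 21 interferon response genes tested and 10 of 18 MYC and ribosome biogenesis genes. They had lower levels of 9 of 12 chemoattractant receptors and of the CDK inhibitor gene Cdkn1b. Over all tested genes 24.8% were higher and 28.2% lower against WT. Cre control, without the allele, also had 10 of 18 MYC and ribosome biogenesis genes higher than WT, where 38.8% of all genes were. It had 6 of 12 chemoattractant receptors lower than WT, where 38.3% of all genes were. An internal promoter window of Bcl6 and the promoters of 4 interferon-inducible genes are shown because the letters searched for occur in them. They are 300-base windows (250 before to 50 after the annotated start) from RefSeq on GRCm38.p6, written 5′ to 3′. The table holds more than 1 start of Bcl6, and the window shown belongs to a start inside the gene, not to the outermost one. Capitals in Bcl6 mark a match to the BCL6-type letters TTCCTNGAA. Capitals in the interferon-inducible genes Tgtp2, Isg15, Gbp2 and Ifit3 mark matches to the letters of the interferon-stimulated response element (GAAA, any NN, GAAA), on either strand, with overlapping matches in 1 run.
Bcl6 (chr16:23981234-23981533, minus strand): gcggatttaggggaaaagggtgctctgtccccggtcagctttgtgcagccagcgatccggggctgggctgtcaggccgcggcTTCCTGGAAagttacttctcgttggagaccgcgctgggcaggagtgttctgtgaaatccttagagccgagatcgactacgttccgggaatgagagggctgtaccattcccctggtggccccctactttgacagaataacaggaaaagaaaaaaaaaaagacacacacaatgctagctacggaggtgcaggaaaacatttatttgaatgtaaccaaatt
Tgtp2 (chr11:49064163-49064462, minus strand): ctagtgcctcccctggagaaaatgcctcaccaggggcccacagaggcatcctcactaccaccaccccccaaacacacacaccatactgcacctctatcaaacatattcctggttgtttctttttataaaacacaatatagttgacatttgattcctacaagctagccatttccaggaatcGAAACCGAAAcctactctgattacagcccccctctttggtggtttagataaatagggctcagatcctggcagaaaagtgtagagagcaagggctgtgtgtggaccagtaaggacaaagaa
Isg15 (chr4:156200769-156201068, minus strand): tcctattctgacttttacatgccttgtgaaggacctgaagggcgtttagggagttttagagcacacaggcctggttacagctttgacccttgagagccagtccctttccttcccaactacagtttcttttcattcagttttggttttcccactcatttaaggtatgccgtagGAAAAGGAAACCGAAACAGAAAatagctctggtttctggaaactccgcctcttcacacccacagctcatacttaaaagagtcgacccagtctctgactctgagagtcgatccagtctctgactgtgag
Gbp2 (chr3:142620413-142620712, plus strand): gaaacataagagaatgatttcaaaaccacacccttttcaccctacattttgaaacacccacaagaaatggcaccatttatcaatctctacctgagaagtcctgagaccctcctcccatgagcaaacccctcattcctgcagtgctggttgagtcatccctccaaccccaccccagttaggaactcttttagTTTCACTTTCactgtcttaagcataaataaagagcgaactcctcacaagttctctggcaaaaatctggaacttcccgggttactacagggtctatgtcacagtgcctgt
Ifit3 (chr19:34583279-34583578, plus strand): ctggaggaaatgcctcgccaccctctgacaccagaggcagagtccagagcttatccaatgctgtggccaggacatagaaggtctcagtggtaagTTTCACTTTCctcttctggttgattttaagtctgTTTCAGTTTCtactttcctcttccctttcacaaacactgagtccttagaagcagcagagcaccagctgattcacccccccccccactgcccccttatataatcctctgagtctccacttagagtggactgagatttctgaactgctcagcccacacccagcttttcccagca
The BCL6-type letters were found in 1.59% of 32851 promoters and the interferon-type letters in 3.44%. Counted by gene, they were found in 1.46% and 3.76% of the tested genes with a promoter. Of the interferon response genes tested, 14 had a promoter in the table and 10 of these held the interferon-type letters and 2 the BCL6-type letters. None of the 18 tested BCL6 repression targets with a promoter held the BCL6-type letters in this window. They were found in 22 of 715 genes higher than WT and Cre control (3.08%) and in 3 of 588 lower genes (0.51%). Tgtp2 also held a BCL6-type match, starting at position -81 from its start and left in lower case. These matches describe letters in these windows only.

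Bcl6 itself was the first check on the labels. It lay at 547.2, 546.0, 589.7, 543.9 and 522.3 CPM in the 5 ImuBcl6 libraries, against 358.0, 366.1 and 363.8 CPM in the 3 WT libraries. Every ImuBcl6 library was above every WT library, and the difference was 0.60 ± 0.05 (SE) on the log2 scale (limma adjusted p = 6e-06). Means were 467.0 CPM in ImuBcl6 D370Y, 362.6 in D370Y and 349.6 in Cre control. Whole-gene CPM (chromosome 16, 23965052 to 23988852, minus strand, mm10) cannot tell the endogenous from the knock-in transcript. Tbl1xr1 (chromosome 3, 22076652 to 22216594) had 128.1 ± 20.6 CPM in ImuBcl6 and 167.9 ± 10.2 CPM in WT (SD, n = 5 and 3; log2 change -0.40 ± 0.11, limma adjusted p = 0.012). Its groups overlapped, because 1 ImuBcl6 library stood at 159.0 CPM and 1 WT library at 156.4 CPM, and Cre control was lower than both at 86.0 CPM. The call was lost without WT replicate 3 and with GC content and length corrected.

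**Figure D1:**
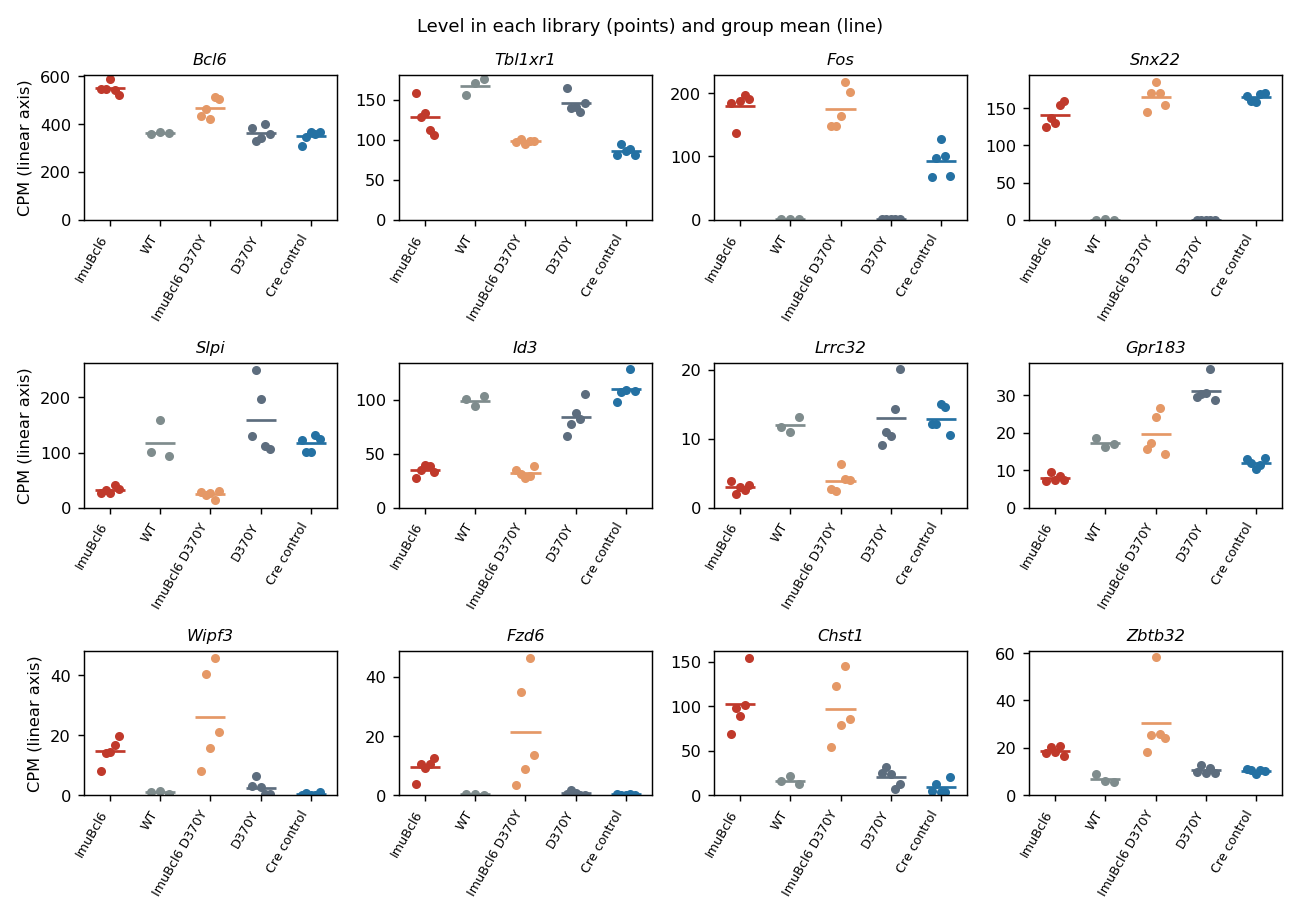
Level in CPM (linear axis from 0) of 12 genes in every library (points) with the group mean (line). In Bcl6 the 5 ImuBcl6 libraries lie between 522.3 and 589.7 CPM, above all 3 WT libraries, and Fos and Snx22 are near 0 in WT and D370Y but not in the other groups.

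The ImuBcl6 and WT libraries differed in more than the allele. Sequencing depth, as reads assigned to the listed genes, was 31.8 to 36.5 M in ImuBcl6 and 19.0 to 19.4 M in WT. Xist, the transcript of the inactive X, was 304 to 638 CPM in ImuBcl6 and 2.22 to 9.12 CPM in WT, whereas Y-linked Ddx3y was at most 0.0246 CPM in ImuBcl6 and 88.3 to 100 CPM in WT, so sex chromosomes, sequencing depth and library group cannot be told apart from the allele; only autosomal genes were tested. Cre control libraries had 30.0 to 32.0 M reads, closer to ImuBcl6 than to WT, and were mixed in sex chromosome transcripts, with Xist at 0.108 to 179 CPM and Ddx3y at 0 to 16.4 CPM. Between ImuBcl6 D370Y and D370Y the depth arrangement was the same and the sex arrangement opposite. Cre control and WT have the same genotype label but limma called 77.1% of 10324 genes between them (38.8% higher and 38.3% lower in Cre control), and 71.1% of 10325 genes between ImuBcl6 and Cre control (39.6% higher and 31.5% lower in ImuBcl6). The 10 defining germinal center B cell markers, among them Ms4a1, Cd79a, Cd79b, Pax5, Ebf1, Bcl6, Fas and Mki67, were present throughout and summed to 6678 to 7651 CPM in ImuBcl6 and 8320 to 9254 CPM in WT. Their sum in Cre control, without the allele, was 6669 to 7140 CPM.

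Limma called 5559 of 10480 autosomal genes between ImuBcl6 and WT (53%), 2600 higher and 2959 lower, with a median log2 change of -0.02 over all tested genes. The balance depended on the scaling: 2878 were higher and 2639 lower with CPM over the reads on listed genes, 2802 and 2710 with TMM scaling, 2830 and 2563 by edgeR, and 2313 and 3885 with GC content and length corrected (37.3% higher, against 46.8% as deposited). The groups of libraries did not overlap in 52% of tested genes, with all ImuBcl6 libraries higher in 24.2% and lower in 27.8%. Change followed transcript composition: across 10442 genes the log2 change correlated with the GC content of the transcripts at a Spearman rho of 0.34, where genes are not independent replicates, and of the 2089 genes with the lowest GC content 60.7% were lower and 9.10% higher in ImuBcl6. Against Cre control that rho was -0.66, and between Cre control and WT it was 0.72. The cause of these differences between libraries was not tested. Genes were also asked to differ from WT and from Cre control in the same direction, a rule chosen after the data were seen, which called 1683 of 10628 genes (15.8%), 941 higher and 742 lower. With a correction for GC content and length, the rule called 2741 genes, 35.3% of them higher against 55.9% without it.

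Of the genes higher than WT and Cre control, 868 were tested between ImuBcl6 D370Y and D370Y. There 628 of them (72.4%) were called higher and 9 lower. Of the 725 lower genes, 577 (79.6%) were called lower there and none higher. In that comparison limma called 5569 of 10378 genes (53.7%). Split by direction, the background for the 72.4% is 21.9% and that for the 79.6% is 31.8%. The libraries differ, but the depth arrangement is that of the first comparison. Over all genes tested in both, 4133 moved the same way without and with D370Y, and 25 moved in opposite ways. The 4133 were 76.1% of those called in ImuBcl6 against WT and 74.5% of those called in ImuBcl6 D370Y against D370Y. Of 1593 genes differing from WT and Cre control, 1205 (75.6%) moved the same way with D370Y and 9 the opposite way. That share was no larger than the 76.1% without the Cre control requirement.

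**Figure D2:**
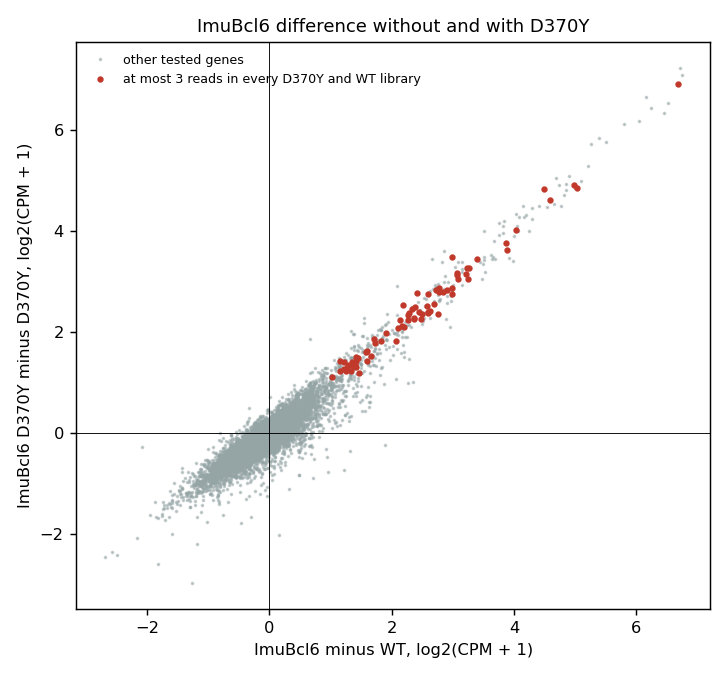
Difference of means on the log2(CPM + 1) scale for each tested gene, ImuBcl6 minus WT (x axis) and ImuBcl6 D370Y minus D370Y (y axis). Red points are genes with at most 3 reads in every D370Y and WT library, whose positive values on the x axis are fixed by that choice and by the CPM minimum.

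Among the 12 genes with the largest rise at a mean of at least 5 CPM were Snx22, Fos, Mir682, Acat3, Fam18a, Rpl35, Degs2, Sla2, Rps25, Rps28 and Gpld1. Snx22, a sorting nexin gene, had 124.9, 137.3, 130.3, 154.4 and 159.1 CPM in ImuBcl6, against 0.258, 0.516 and 0.310 CPM in WT. Cre control had 164.6 CPM, close to ImuBcl6, and D370Y had 0.112 CPM, close to WT. Rps25 and Rps28 showed the same arrangement of groups. Rps25 had 194.1 ± 24.5 CPM in ImuBcl6 and 5.50 ± 0.216 CPM in WT (SD, n = 5 and 3), with 210.7 CPM in Cre control.

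The 12 largest falls were Crisp3, Eps8l1, Ranbp6, Scand1, Zfp943, Slpi, Zfp760, Zfp758, Lrrc32, Satb1, B3gnt5 and Samd9l. Crisp3, which encodes a cysteine-rich secretory protein, had 3.44, 2.38, 2.55, 1.67 and 1.52 CPM in ImuBcl6, against 17.7, 18.2 and 24.1 CPM in WT, and Cre control was as low as ImuBcl6 at 2.57 CPM. Samd9l, an interferon-inducible gene outside the list used here, had 45.6 ± 16.9 CPM in ImuBcl6 and 145.3 ± 16.4 CPM in WT, and was lower still in Cre control at 6.26 CPM. Ranbp6, Zfp943, Zfp760 and B3gnt5 were likewise lower in Cre control than in ImuBcl6. Eps8l1, Scand1, Slpi, Lrrc32 and Satb1 were lower in ImuBcl6 than in both. Eps8l1, of a family of actin regulators, had 5.68, 3.07, 3.70, 9.71 and 4.02 CPM in ImuBcl6, against 24.6, 24.4 and 22.4 CPM in WT, and 18.7 CPM in Cre control.

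Apart from these, 94 tested genes had at most 3 reads in every one of the 8 D370Y and WT libraries, which are 3.62% of the higher calls in ImuBcl6. They could reach the CPM minimum only through ImuBcl6, so their direction was fixed by the way they were chosen. The opposite choice, near absence from every ImuBcl6 and ImuBcl6 D370Y library, held 1 tested gene. Gm5148 had 90.1 to 121 CPM in ImuBcl6 and 0 in all 3 WT libraries, with 138.8 CPM in Cre control. Zfp385c (31.4 ± 0.909 CPM), Fndc9 (33.3 ± 3.83), Doc2a (24.2 ± 2.97), Far2 (24.0 ± 2.71) and 4930562F07Rik (15.4 ± 1.27; SD, n = 5) were similar in ImuBcl6, at 0.102 CPM or less on average in WT. Every Cre control library was above every WT library in 3646 of all 10480 tested genes and in 1559 of the 2600 called higher. In all 94 it was so, with a median level of 2.34 CPM in Cre control. The choice did not use Cre control but held the WT side near 0, so this is not independent of it. Exons overlapped a gene on the opposite strand in 87.0% of the 92 with an annotation, against 33.9% of all tested genes, and 39.4% were not protein-coding, against 3.85%. The 100 largest rises, from which the 94 were not left out, were similar. Of these 100, 77.1% of the 96 with an annotation had such an overlap and 35.0% were not protein-coding. The part of counting or library preparation in the 94 and in the largest rises, such as Snx22 and Fos, was not tested.

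Interferon response genes rose. Of 21 tested, 15 were higher and none lower against WT (median log2 change 0.67), where 24.8% of all tested genes were higher, and 12 were higher than WT and Cre control at once, where 8.85% were. Usp18, an interferon-induced protease that removes ISG15 from proteins (chromosome 6, 121245906 to 121270917), had 18.9, 17.2, 21.6, 20.3 and 16.3 CPM in ImuBcl6, against 3.74, 4.65 and 2.93 CPM in WT. All 5 ImuBcl6 libraries were far above the WT libraries, and the log2 change was 2.06 ± 0.13 (limma adjusted p = 2.6e-07). Cre control had 5.56 CPM. Oasl2, of the oligoadenylate synthetase family, had 11.9 ± 0.893 CPM in ImuBcl6 and 3.14 ± 0.514 CPM in WT (1.64 ± 0.11, limma adjusted p = 4.1e-07). Xaf1, an interferon-inducible gene, had 14.3 ± 1.49 CPM in ImuBcl6 and 5.99 ± 0.812 CPM in WT. Gbp2, an interferon-inducible GTPase, had 25.2 ± 2.70 CPM in ImuBcl6 and 13.9 ± 1.14 CPM in WT (0.81 ± 0.10). Also higher than both were Isg15, Oas2, Oas3, Ifi27l2a, Mx1, Iigp1 and Ifit3. Ifit1 and Rsad2 did not pass the test against WT (0.06 ± 0.20 and 0.17 ± 0.16). Tgtp2, an interferon-inducible GTPase outside the list, had 10.2, 13.9, 10.9, 13.9 and 17.6 CPM in ImuBcl6, against 1.51, 2.19 and 0.753 CPM in WT (2.54 ± 0.20), and 0.998 CPM in Cre control.

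Between ImuBcl6 D370Y and D370Y 9 of 21 were higher and 1 lower (Ifit2), where 21.9% of genes were higher and 31.8% lower. Usp18 was 12.4 CPM in ImuBcl6 D370Y and 5.67 CPM in D370Y. Oas2, Oas3, Mx1 and Ifit3 did not pass there. Markers of T cells moved as well. Against WT, Pdcd1, Lck and Cd3g were higher and none lower of 6 tested, where 24.8% of all tested genes were higher. Between ImuBcl6 D370Y and D370Y 4 of 6 were higher (Pdcd1, Cd2, Lck and Cd3g) and 2 lower (Cd28 and Cd5). The 16 markers listed summed to 351 to 463 CPM in ImuBcl6, 267 to 290 CPM in WT and 364 to 411 CPM in Cre control. At most 3 reads in every library were found for 1 of the 16 in ImuBcl6 and 4 in WT. Of the T cell sum Lck alone had 270.6 ± 32.5 CPM in ImuBcl6 and 136.2 ± 12.3 CPM in WT, and 221.0 CPM in Cre control. Cd3g had 1.48 ± 0.670 CPM in ImuBcl6 and 0.506 ± 0.126 CPM in WT, and its groups overlapped. Myeloid markers summed to 25.2 to 32.9 CPM in ImuBcl6, 19.6 to 28.1 CPM in WT and 102 to 152 CPM in Cre control. Erythroid markers summed to 71.5 to 108 CPM in ImuBcl6, 123 to 147 CPM in WT and 37.0 to 43.0 CPM in Cre control. Of the 11 found, 2 were tested against WT and only Tfrc was called, lower in ImuBcl6. At most 3 reads in every library were found for 5 of the 11 in ImuBcl6, 7 in WT and 5 in Cre control. The part of other cells in the interferon values was not tested, and in bulk samples fewer cells of a type and less RNA per cell cannot be told apart.

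**Figure D3:**
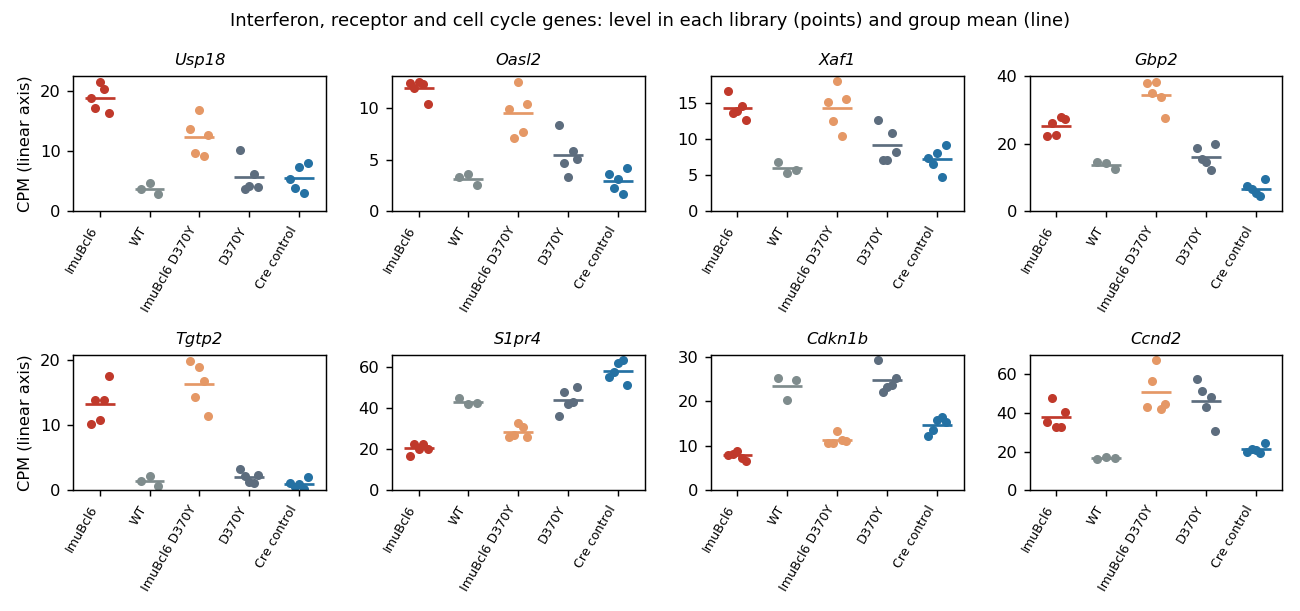
Level in CPM (linear axis from 0) of 5 interferon-inducible genes, 1 receptor gene and 2 cell cycle genes in every library (points) with the group mean (line). Usp18 lies at 16.3 to 21.6 CPM in ImuBcl6 and at 2.93 to 4.65 CPM in WT, and S1pr4 is lower in ImuBcl6 than in WT and Cre control.

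Receptors that position B cells fell. Of 12 chemoattractant and positioning receptors tested, 9 were lower and none higher against WT (median -0.52), where 28.2% of all tested genes were lower, and 5 were lower than WT and Cre control, where 6.98% were. S1pr4, a receptor for sphingosine 1-phosphate (chromosome 10, 81497747 to 81500132), had 16.9, 22.7, 20.1, 22.6 and 20.1 CPM in ImuBcl6, against 45.0, 42.2 and 42.5 CPM in WT (-1.05 ± 0.10, limma adjusted p = 6.3e-06) and 58.0 CPM in Cre control. Gpr183, the oxysterol receptor that directs B cells to the outer follicle, had 7.22, 9.49, 7.26, 8.48 and 7.31 CPM in ImuBcl6, against 18.6, 16.2 and 16.9 CPM in WT (-1.03 ± 0.11). Cre control lay between them at 10.2 to 13.2 CPM, below every WT library. In S1pr4 and Gpr183 the ImuBcl6 and WT libraries did not overlap. Cnr2, a cannabinoid receptor, had 55.6 ± 2.28 CPM in ImuBcl6 and 78.8 ± 1.14 CPM in WT (-0.50 ± 0.06). Cxcr5, the follicle-homing chemokine receptor, had 295.9 ± 28.8 CPM in ImuBcl6 and 367.7 ± 11.8 CPM in WT (-0.32 ± 0.08). Both, and S1pr3, were lower than Cre control as well. S1pr1 and Ccr6 were lower than WT but higher than Cre control, and Lpar6 and Gpr18 were lower than WT and did not pass against Cre control. Between Cre control and WT, 3 of 12 receptors were higher and 6 lower in Cre control, where 38.8% and 38.3% of all genes were. Gpr183 was among the 6. S1pr2, which confines B cells to the germinal center, did not pass (0.13 ± 0.07), with 464.9 ± 29.7 CPM in ImuBcl6 and 424.8 ± 34.6 CPM in WT. Between ImuBcl6 D370Y and D370Y 11 of the 12 were lower and none higher, where 31.8% and 21.9% of all genes were.

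Genes that BCL6 is known to repress moved both ways: 10 of 25 were higher and 10 lower against WT, and 7 were higher and 4 lower than both controls. Over all tested genes 24.8% were higher and 28.2% lower against WT, and 8.85% higher and 6.98% lower than both. Against Cre control alone 16 were higher and 7 lower, where 39.6% and 31.5% of all genes were. Cdkn1b, which encodes the CDK inhibitor p27 (chromosome 6, 134920401 to 134925513), had 8.05, 8.23, 8.90, 7.30 and 6.69 CPM in ImuBcl6, against 25.1, 20.2 and 24.7 CPM in WT (-1.46 ± 0.11, limma adjusted p = 1.1e-06), and 14.7 CPM in Cre control. The other members lower than both were Gpr183, Nfkb1 and the anti-apoptotic gene Bcl2l1. Members higher than both included Il10, a regulatory cytokine, with 6.36, 5.88, 6.42, 7.15 and 8.29 CPM in ImuBcl6, against 2.11, 1.08 and 1.11 CPM in WT (1.70 ± 0.15). Tnfaip3, an inhibitor of NF-kB, had 58.0 ± 4.28 CPM in ImuBcl6 and 34.4 ± 1.70 CPM in WT. Ccnd2, Ahr, Id2 and Cd80 were also higher than both. Prdm1 and Irf4, regulators of plasma cell differentiation, did not pass (-0.13 ± 0.15 and -0.11 ± 0.06). Between ImuBcl6 D370Y and D370Y the list had 6 members higher and 11 lower, where 21.9% and 31.8% of all genes were.

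Cell cycle lists are read against 24.8% higher and 28.2% lower over all tested genes against WT. Against both controls at once, 8.85% of all genes were higher and 6.98% lower. Among 14 D cyclins and CDK inhibitors, 4 were higher and 6 lower against WT, the higher share being near that of all genes, and Cdk6 and Ccnd2 were higher, and Cdkn2c, Cdkn1b, Cdkn2d and Ccnd3 lower, than both controls. Ccnd2, which encodes cyclin D2, had 35.3, 47.4, 32.9, 32.5 and 40.5 CPM in ImuBcl6, against 16.0, 17.2 and 16.9 CPM in WT (1.11 ± 0.12). It was 50.7 CPM in ImuBcl6 D370Y and 46.1 CPM in D370Y, a difference that did not pass (0.14, limma adjusted p = 0.48). Ccnd3, encoding cyclin D3, had 230.4 ± 30.8 CPM in ImuBcl6 and 294.4 ± 14.7 CPM in WT. G1/S genes had 10 of 20 higher and 2 lower, and Mcm6, Tyms and Cdc6 were higher than both. Against Cre control alone 8 G1/S genes were higher and 8 lower, where 39.6% and 31.5% of all genes were. Of 20 G2/M genes 5 were higher and 4 lower, close to the shares over all genes or below them, with Ccnb1, which encodes cyclin B1, at 60.8 ± 7.59 CPM in ImuBcl6 and 37.2 ± 1.86 CPM in WT (0.69 ± 0.10).

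Of 18 MYC and ribosome biogenesis genes, 10 were higher and 1 lower against WT (median 0.34), where 24.8% of all tested genes were higher. Of them 5 were higher than both controls, where 8.85% of all genes were: Odc1, Polr1b, Nop56, Nolc1 and Wdr12. Between Cre control and WT, 10 of the 18 were higher and 6 lower in Cre control (median 0.30), where 38.8% and 38.3% of all genes were. Odc1, the rate-limiting enzyme of polyamine synthesis (chromosome 12, 17544794 to 17551505), had 245.6, 244.4, 213.9, 246.0 and 267.1 CPM in ImuBcl6, against 67.3, 70.9 and 66.4 CPM in WT (1.82 ± 0.07, limma adjusted p = 3.4e-09). Cre control lay between them at 147.6 CPM. Myc had 56.0 ± 10.4 CPM in ImuBcl6 and 36.5 ± 3.16 CPM in WT (0.59 ± 0.13), and 50.2 CPM in Cre control. Of 16 glycolysis genes 10 were higher and 2 lower, and Hk2, Tpi1 and Pfkp were higher than both. Cre control had 9 of these 16 higher and 3 lower than WT. Tpi1, which encodes triosephosphate isomerase, had 596.9 ± 126.3 CPM in ImuBcl6 and 291.6 ± 22.1 CPM in WT (1.01 ± 0.15). The 45 cytosolic ribosomal protein genes had 31 members higher and 5 lower (median 0.60), but only Rpl7 and Rpl4 were higher than both controls and Rplp2, Rpl37 and Rps10 lower; their sum was 17919 to 24166 CPM in ImuBcl6, 15132 to 15836 CPM in WT and 26466 to 30994 CPM in Cre control.

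**Figure D4:**
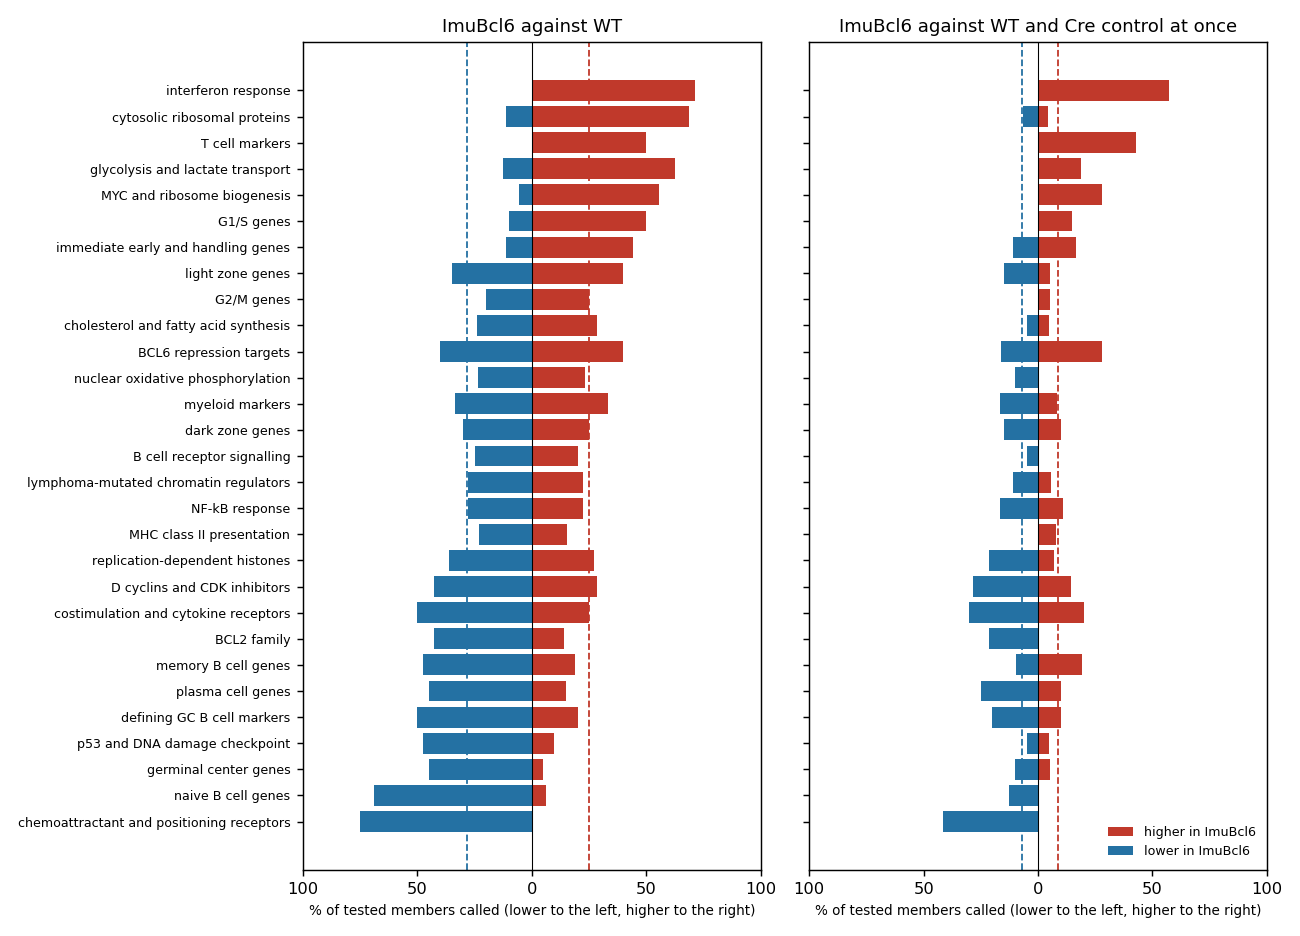
Percent of tested members of each gene list called higher (right, red) or lower (left, blue) in ImuBcl6 against WT (left panel) and against WT and Cre control at once (right panel); dashed lines give the same percent over all tested genes. Interferon response genes reach 15 of 21 and 12 of 21 higher, and chemoattractant receptors 9 of 12 and 5 of 12 lower.

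Lists of B cell states are also read against 24.8% higher and 28.2% lower over all tested genes against WT, and against 39.6% higher and 31.5% lower against Cre control. Against both at once the shares were 8.85% higher and 6.98% lower. Of 20 germinal center genes 9 were lower than WT and Bcl6 alone was higher, but 10 were higher and 6 lower than Cre control, and Gcnt3, a glycosyltransferase gene, was among those lower than both controls. Gcnt3 had 3.98 ± 1.24 CPM in ImuBcl6 and 9.21 ± 0.153 CPM in WT (-1.07 ± 0.17). Naive B cell genes had 11 of 16 lower and 1 higher against WT, but 3 lower and 9 higher against Cre control, with the low-affinity IgE receptor Fcer2a and Il4ra lower than both. Memory genes had 4 of 21 higher and 10 lower against WT, but 13 higher and 3 lower against Cre control. The 4 were also higher than both: Zbtb32, Plac8, Il9r and Cd80. Zbtb32, a transcriptional repressor, had 17.9, 20.3, 18.5, 20.9 and 16.8 CPM in ImuBcl6, against 8.99, 5.94 and 5.76 CPM in WT (1.35 ± 0.13). Plasma cell genes had 3 of 20 higher and 9 lower against WT, but 9 of 19 higher and 5 lower against Cre control. Tnfrsf13b, the receptor TACI, had 11.2 ± 1.68 CPM in ImuBcl6 and 23.2 ± 0.969 CPM in WT (limma adjusted p = 3.6e-05), and Sdc1, which encodes CD138, had 2.18 ± 0.508 CPM in ImuBcl6 and 5.83 ± 0.944 CPM in WT (-1.11 ± 0.16). Dark zone genes had 5 of 20 higher and 6 lower, close to the shares over all genes, and light zone genes had 8 of 20 higher and 7 lower against WT but 3 higher and 7 lower against Cre control.

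Several single genes stood well apart from both controls, named by a rule chosen after the data were seen. Slpi, a secreted protease inhibitor (chromosome 2, 164354070 to 164389095), had 27.2, 31.4, 27.3, 40.5 and 34.4 CPM in ImuBcl6, against 100.7, 158.9 and 94.5 CPM in WT (-1.82 ± 0.17), and 116.5 CPM in Cre control. Id3, an inhibitor of E protein transcription factors (chromosome 4, 136143497 to 136145755), had 27.9, 35.2, 39.8, 38.7 and 33.5 CPM in ImuBcl6, against 100.5, 94.2 and 103.3 CPM in WT (-1.49 ± 0.10), and 110.4 CPM in Cre control. Slpi averaged 24.7 CPM in ImuBcl6 D370Y and 159.3 CPM in D370Y, and Id3 averaged 32.3 CPM in ImuBcl6 D370Y and 83.7 CPM in D370Y. Lrrc32, a docking receptor for TGF-beta, had 2.92 ± 0.716 CPM in ImuBcl6 and 11.9 ± 1.13 CPM in WT, and the chromatin organizer Satb1 8.03 ± 2.03 CPM in ImuBcl6 and 28.3 ± 2.63 CPM in WT.

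Among the rises, Wipf3, which encodes a WASP-interacting protein, had 8.03, 14.2, 14.3, 16.9 and 19.7 CPM in ImuBcl6, against 1.08, 1.38 and 0.576 CPM in WT (2.93 ± 0.23). The formin gene Fhod3 had 17.5 ± 5.39 CPM in ImuBcl6 and 1.46 ± 0.413 CPM in WT, and the Wnt receptor gene Fzd6 9.43 ± 3.30 CPM in ImuBcl6 and 0.404 ± 0.147 CPM in WT. Chst1, a keratan sulfate sulfotransferase, had 69.0, 97.7, 89.6, 101.6 and 154.6 CPM in ImuBcl6, against 16.1, 21.6 and 12.3 CPM in WT (2.54 ± 0.22). Each of these was below 10 CPM on average in Cre control. Fos, an immediate early gene, had 179.2 ± 24.3 CPM in ImuBcl6 and 1.05 ± 0.367 CPM in WT but 92.3 CPM in Cre control, so of the 5 groups used WT and D370Y were near 0. Of 18 immediate early and handling genes 8 were higher and 2 lower against WT, where 24.8% and 28.2% of all tested genes were. Against Cre control 5 were higher and 9 lower, where 39.6% and 31.5% of all genes were.

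Where 24.8% of all tested genes were higher and 28.2% lower against WT, 2 of 21 p53 and DNA damage checkpoint genes were higher and 10 lower. Against Cre control, where 39.6% were higher and 31.5% lower, 13 of these were higher and 4 lower. Zmat3 was higher and Gadd45b lower than both, where 8.85% and 6.98% of all genes were. Of 14 BCL2 family genes 2 were higher and 6 lower against WT, and Bcl2l1, Bmf and Bad were lower than both. Of 20 costimulation and cytokine receptor genes 5 were higher and 10 lower against WT, and 9 higher and 7 lower against Cre control. Il9r, the interleukin 9 receptor, had 48.4, 90.6, 48.9, 58.7 and 62.2 CPM in ImuBcl6, against 25.4, 28.1 and 20.9 CPM in WT (1.25 ± 0.18), and 8.75 CPM in Cre control. Of 30 nuclear oxidative phosphorylation genes 7 were higher and 7 lower against WT, and 3 higher and 18 lower against Cre control. Of 13 MHC class II genes 2 were higher and 3 lower against WT, and 2 higher and 8 lower against Cre control.

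The heavy-chain locus, where the allele sits, was looked at by position. Within 10 Mb of Ighm (chromosome 12, 113418558 to 113422730) 71 genes were tested, of which 18 were higher and 15 lower, where 24.8% and 28.2% of all genes were, with a median of -0.02, the same as over all tested genes. The difference between the ImuBcl6 effects without and with D370Y was called in 41 of 10740 genes (0.382%), 38 with a larger (0.354%) and 3 with a smaller value (0.0279%) without D370Y, and 1325 had an unadjusted p below 0.05. Leaving out 1 library gave 11 (without WT replicate 3) to 71 genes (without ImuBcl6 replicate 1). Capn11, which encodes a calpain, had 3.42 ± 0.810 CPM in ImuBcl6 and 0.0143 ± 0.0248 CPM in WT, but 0 in ImuBcl6 D370Y and 1.36 CPM in D370Y. Tox, a nuclear factor of lymphocytes, had 50.7 ± 7.19 CPM in ImuBcl6 and 26.4 ± 5.97 CPM in WT, but 26.9 CPM in ImuBcl6 D370Y and 34.2 CPM in D370Y. This contrast is also one between sexes, and the 2 cannot be told apart.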

How the data were processed

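Each library has a table of CPM that the authors deposited, with 23382 gene symbols; per the submitters' processing notes reads were aligned with STAR to mm10. The counter, its strand setting, the annotation and the ImuBcl6 and WT library kit are not given in the sources used here, so reads of overlapping, antisense or near-identical genes could have been shared. Dividing by the CPM of a single read gave whole numbers, within 0.01, for 100% of values, so reads were recovered. Of the symbols 23110 (98.8%) matched an annotation and 22074 were autosomal.

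Genes with at least 1 CPM in 3 or more of the libraries (5 or more where both groups have 5) were fitted on log2(CPM + 1) with limma (version 3.58.1, R 4.3.3), with trend and robust moderation, two-sided, with Benjamini-Hochberg adjustment over all tested genes and a threshold of 0.05. To differ from WT and Cre control, a gene needed the same sign in both contrasts of 1 fit of 3 groups and the larger p was adjusted; this rule was chosen after seeing the data. Recovered reads were also tested with edgeR (version 4.0.16) and DESeq2 (version 1.42.0). On data simulated from ImuBcl6 against WT (10480 genes), limma recovered 83% of genes changed 1.5-fold and 99% changed 2-fold, with 13 false calls. Few genes were changed in the simulation, all at 5 CPM or more in WT, and no difference between library groups was put in. Its false calls therefore do not measure those of the real comparison.

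Members and gene lists were chosen with earlier results of these data known. Named genes are Bcl6, Tbl1xr1, the 12 largest rises and 12 largest falls at a mean of at least 5 CPM (groups not overlapping, without predicted or near-absent genes), up to 4 called members per list by moderated t, the 10 shared with D370Y, 6 near-absent genes and 5 from the difference of effects. Genes called against both controls and members that did not pass but bear on a list were named after their values were seen. Some genes are not reported here. Depth per library limits the precision of low levels.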

Additional observations from a re-analysis of the deposited data

Results flagged for a closer look

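In 9 of the 167 named genes 1 of the 5 ImuBcl6 libraries stood far from the other 4, where chance gives about 1 in 20. Fos was 136.4 CPM in replicate 2 and 184.3 to 196.5 CPM in the others. Satb1 was 4.45 CPM and Oasl2 10.3 CPM in replicate 5, below the rest. Upp1 was 31.8 CPM and Trp73 23.8 CPM in replicate 5, above the rest, which for Upp1 lay at 1.31 to 5.29 CPM. Trp53bp1 was 104.4 CPM in replicate 3, H2-Ob 518.1 CPM in replicate 1, Cnr2 59.7 CPM and Itgax 6.98 CPM in replicate 2, each the highest of its group.

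The ImuBcl6 effect without D370Y minus that with D370Y passed limma's test for 6 named genes, on the log2 scale. It was 3.33 ± 0.19 (SE) for Capn11, 1.32 ± 0.14 for Efcab7, 1.96 ± 0.25 for 1700048O20Rik, 1.25 ± 0.16 for Tox, 1.61 ± 0.22 for Zfp365 and -1.79 ± 0.31 for Eps8l1, with limma adjusted p from 9.5e-10 (Capn11) to 0.011 (Eps8l1). Sex and D370Y cannot be told apart in this contrast.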

How the results depend on the processing

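The count of genes called between ImuBcl6 and WT was within 1.5 times 5559 under all alternatives run: 5393 by edgeR, 5648 by DESeq2, 6661 with library weights and 4242 to 6158 leaving out 1 library. Replicate numbers did not pair the samples (correlations of same-numbered deviations -0.20, -0.04 and 0.18), and with the replicate number as a block 4956 genes were called. The count apart from WT and Cre control was 2741 with GC content and length corrected and 1321 to 1702 leaving out 1 library. The near-absent genes numbered 167 at a limit of 10 reads. The difference of effects ranged from 11 (without WT replicate 3) to 71 genes (without ImuBcl6 replicate 1); without WT replicate 1 it was 16, without ImuBcl6 replicates 2 and 4 it was 21 and 18, and without D370Y replicates 1, 2 and 4 it was 20, 20 and 22. Corrected for GC content and length, interferon genes had 13 higher and 1 lower against WT. Over all tested genes that setting called 2313 higher and 3885 lower, and the other lists are not given under it. Of 3653 values of named genes under alternatives, 3631 kept direction and call and 22 lost the call, in 14 genes, Tbl1xr1 and Cd3g among them. The causes were not tested.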
